A study of Homo sapiens with 60 samples.

Results

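The 44 genes described here code for the machinery that takes a cell from G2 phase through mitosis: cyclins and CDK1, mitotic kinases, kinetochore and spindle checkpoint proteins, kinesins, the chromosomal passenger complex and the proteins that separate chromatids and divide the cell. They were taken by symbol from a list of mitosis and G2/M genes, and each matched 1 of the 60675 rows of the count table. The RNA came from HT29, an established human line of colorectal adenocarcinoma. Its cells were kept for 24 h with 1 of 8 herbal extracts at 3 doses or with the DMSO vehicle, which gave 60 libraries in 25 groups. Yijin-tang and Soshiho-tang are decoctions given as water extracts, and the other 6 are ethanol extracts of single herbs, namely Aucklandiae Radix, Polygalae Radix, Zizyphi Semen, Schisandrae Fructus, Longan Arillus and Liriopis seu Ophiopogonis Tuber. Both decoctions and the last 4 herbs were given at 500 (high), 100 (medium) or 20 (low) µg/mL. Polygalae Radix was given at 380, 76 and 15.2 µg/mL and Aucklandiae Radix at 370, 74 and 14.8 µg/mL, because the series description lowers the top dose to the IC20, a concentration that inhibits the cells in part, where that lies under 500 µg/mL. The sample labels give the vehicle as 0.1% DMSO, while the series description names another share. The vehicle, Yijin-tang, Liriopis, Schisandrae, Longan and Zizyphi groups held 3 libraries each, the Soshiho-tang groups 2, and each dose of Polygalae and Aucklandiae 1. The labels do not say whether replicates were separate cultures, so p-values measure only the spread between these libraries.

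Entry into mitosis is driven by CDK1 bound to cyclin B, which the CDC25 phosphatases switch on and WEE1 and PKMYT1 hold back. Aurora and Polo-like kinases then build the spindle, the checkpoint proteins TTK, BUB1, BUB1B, BUB3 and MAD2L1 delay anaphase until kinetochores are attached, and CDC20 directs the anaphase promoting complex against cyclin B and securin (PTTG1). Transcripts of many of these genes rise late in the cell cycle under FOXM1, MYBL2 and the MuvB proteins and are held low by the DREAM complex, which acts through a promoter element called CHR, often beside CCAAT boxes bound by NF-Y. In a growing epithelial tumour line such as HT29 the summed level of these transcripts follows the share of cells in G2 and mitosis as well as the amount per cell, and in bulk RNA fewer such cells and less RNA per cell cannot be told apart.

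Promoter windows were found in RefSeq (GRCh38.p14, 250 bases before to 50 after the annotated start) for 37 of the 44 genes, and FOXM1, AURKA, TTK, BUB3, BIRC5, TPX2 and UBE2C had no entry. The CHR was searched as TTTGAA or TTCGAA and the CCAAT box as CCAAT, on both strands. A CHR stood in 29 of the 37 windows (78.4%) and in 16.6% of 27303 windows of all genes, and a CCAAT box in 29 (78.4%) against 35.7%. Both motifs stood in 24 (64.9%) against 6.58%. A pair or more of CCAAT boxes stood in 17 windows (45.9%) against 11.3%. Windows of 5 genes are printed, 5′ to 3′ on the gene's strand, because their transcripts mark the ends of the range described below. Among the 44 genes NUSAP1, TOP2A and CDC25C had the lowest values after the top dose of Aucklandiae, and CDC20 and CDC25B the highest. Capitals mark CHR and CCAAT letters on either strand.
NUSAP1, chr15:41332631-41332930, plus strand: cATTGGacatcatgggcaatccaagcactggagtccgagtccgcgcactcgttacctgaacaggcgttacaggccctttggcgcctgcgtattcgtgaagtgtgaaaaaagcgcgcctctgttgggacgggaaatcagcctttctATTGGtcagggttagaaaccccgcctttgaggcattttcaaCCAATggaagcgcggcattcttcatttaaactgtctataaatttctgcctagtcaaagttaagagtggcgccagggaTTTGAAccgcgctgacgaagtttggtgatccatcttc
TOP2A, chr17:40417847-40418146, minus strand: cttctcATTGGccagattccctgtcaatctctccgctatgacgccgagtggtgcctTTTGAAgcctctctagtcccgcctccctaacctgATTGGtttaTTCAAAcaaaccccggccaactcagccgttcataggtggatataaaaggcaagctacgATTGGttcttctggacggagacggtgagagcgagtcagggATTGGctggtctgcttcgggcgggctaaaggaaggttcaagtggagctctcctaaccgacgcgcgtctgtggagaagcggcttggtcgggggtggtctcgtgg
CDC25C, chr5:138338306-138338605, minus strand: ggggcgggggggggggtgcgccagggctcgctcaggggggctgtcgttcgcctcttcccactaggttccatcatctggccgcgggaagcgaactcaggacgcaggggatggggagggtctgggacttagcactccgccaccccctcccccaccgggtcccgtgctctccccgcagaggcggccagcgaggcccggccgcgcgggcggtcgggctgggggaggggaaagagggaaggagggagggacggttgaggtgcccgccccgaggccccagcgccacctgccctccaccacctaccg
CDC20, chr1:43358731-43359030, plus strand: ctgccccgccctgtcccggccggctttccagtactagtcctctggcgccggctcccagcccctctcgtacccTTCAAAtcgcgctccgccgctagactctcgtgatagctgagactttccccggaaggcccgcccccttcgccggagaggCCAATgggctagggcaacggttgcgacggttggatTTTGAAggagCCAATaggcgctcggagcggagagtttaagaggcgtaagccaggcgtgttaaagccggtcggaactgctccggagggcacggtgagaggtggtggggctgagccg
CDC25B, chr20:3786701-3787000, plus strand: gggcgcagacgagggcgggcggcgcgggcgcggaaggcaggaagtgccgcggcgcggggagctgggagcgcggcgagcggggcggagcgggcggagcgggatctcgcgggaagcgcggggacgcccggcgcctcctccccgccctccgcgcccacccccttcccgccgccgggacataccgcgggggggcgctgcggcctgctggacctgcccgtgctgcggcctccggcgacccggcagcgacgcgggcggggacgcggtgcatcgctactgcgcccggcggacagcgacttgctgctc
TOP2A held 4 CCAAT boxes, the nearest beginning 53 bases before the start, and a pair of CHR matches, and NUSAP1 held 3 CCAAT boxes and a CHR. CDC20 held a pair of each motif. CDC25C and CDC25B, which lie at opposite ends of the range, held neither. A match is a description of the letters and not evidence of binding, and no match says only that these letters are not in this window.

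Library totals lay between 18161717 and 35128954 expected counts, and counts of single members between 139 (CDC25C, Aucklandiae high dose) and 18285 (TOP2A). The epithelial keratin KRT8 had a mean of 6870 CPM (counts scaled to a common library total, in the usual per-million unit) in the vehicle libraries and EPCAM 502, while the intestinal markers CDH17 and CDX1 were near the floor at 2.78 and 0.84 CPM. The leukocyte marker PTPRC stood at 0.0109 CPM. A library labelled Yijin-tang low dose replicate 2 stood apart: UBE2C was at 250 CPM there against 104 and 102 in the other libraries of its group, and ASPM at 69.1 against 204 and 196. It was left out of the fit of the replicated groups (53 libraries remain), which lowered the common coefficient of biological variation from 9.71% to 5.07%. Blood transcripts were found in Soshiho-tang high dose replicate 3, with HBB at 3.3 CPM and HLA-DRA at 3.86 CPM against at most 0.0425 and 0.0521 CPM in the 58 libraries other than it and the Aucklandiae high-dose library. It was kept, and counts of called genes or log2 fold changes that rest on it are given with and without it. The library names begin with a code that is called the library set here, and the labels do not say what it means. The vehicle libraries carry a code of their own, so an extract and its library set cannot be told apart in any comparison with the vehicle.

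In the vehicle libraries the members differed widely in level per transcript length. TPX2, which activates Aurora A on the spindle, stood highest at 105 CPM per kb of summed exon, followed by UBE2C, a ubiquitin-conjugating enzyme of the anaphase promoting complex, at 95, the CDK subunit CKS2 at 85.7 and CDC20 at 80.4. TOP2A, the topoisomerase that untangles sister chromatids, followed at 77.9 and cyclin B1 (CCNB1) at 68 CPM per kb. CDC25C, KIF14, SKA1 and NUF2 stood lowest at 5.63, 5.97, 6.21 and 6.47 CPM per kb. Pooled over groups, replicates were close: the within-group SD of log2 CPM ran from 0.04 (PRC1, KIF2C) to 0.11 (CKS2, KIF14, PTTG1). The vehicle libraries spread more: the SD of their mean log2 CPM over the members was 0.076, against 0.030 pooled over groups. KIF11 stood at 88.6, 118 and 108 CPM in them, while KIF4A stood at 86.8, 86.9 and 86.3 CPM. The tests below estimate spread across all groups of the fit, so SEs and p-values against the vehicle can understate the error.

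The mean log2 CPM over the 44 genes set 1 library far below all others. Among the 54 libraries of the replicated groups it lay between -0.106 and 0.063 relative to the vehicle mean, and the vehicle libraries themselves lay at -0.085, 0.062 and 0.024. The Aucklandiae high-dose library lay at -0.849, while its medium and low doses lay at -0.003 and -0.068, inside the range of the vehicle. The Polygalae libraries lay at -0.341, -0.168 and -0.122 from the high to the low dose, all below every one of the 54. In both decoctions the mean was ordered by dose without overlap among the libraries kept. For Yijin-tang it was 0.045 ± 0.008 (SD, n = 3) at the high dose, between -0.020 and 0.021 at the medium dose and -0.024 and -0.040 at the low dose. For Soshiho-tang it was 0.042 and 0.063 at the high dose, -0.008 and 0.007 at the medium dose and -0.047 and -0.045 at the low dose. The 3 vehicle libraries span almost the whole of this range. The other replicated extracts had group means between -0.090 and -0.027, and their doses overlapped.

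**Figure D1:**
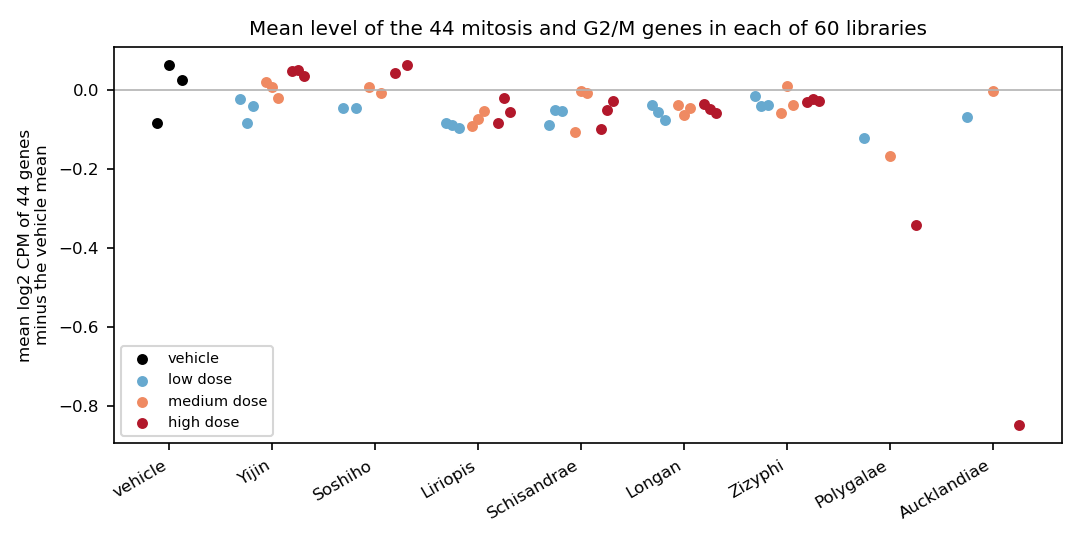
Each point is 1 of 60 libraries; the vertical axis is the mean log2 CPM of the 44 genes minus the vehicle mean, and colour gives the dose. The Aucklandiae high-dose library lies at -0.849 and the Polygalae high-dose library at -0.341, below the range of -0.106 to 0.063 of the 54 libraries of replicated groups.

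Aucklandiae Radix at its high dose had broadly lower mitotic transcripts in its single library. Of the 44 genes 34 were at least 1.5-fold below the vehicle mean, 15 were at least 2-fold below it and 43 were below it at all, with a median log2 difference of -0.90. No member was 1.5-fold higher. The library differed widely from the vehicle in other genes too: 20.2% of the 16835 genes tested were at least 1.5-fold lower and 15.9% at least 1.5-fold higher. At the medium dose (background 5.11% lower) and the low dose (3.75% lower) no member was 1.5-fold lower, and the medians were 0.03 and -0.06. In the 50 extract libraries kept from the replicated groups no member reached 1.5-fold in either direction. With 1 library there is no replicate check and no test, and log2 differences are on the scale of log2 CPM with a prior count of 2.

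Among the cyclins and the CDK1 switch, CDK1 itself stood at 79.2, 90.7 and 71.8 CPM in the vehicle libraries and at 73.3, 68.2 and 33.8 CPM at the low, medium and high dose of Aucklandiae (exact 95% Poisson interval of the last 31.5 to 36.2, counting error only). The drop lay between the medium and the high dose. Cyclin B2 (CCNB2) stood at 134, 147 and 158 CPM in the vehicle libraries and at 127, 134 and 61.9 CPM over the rising doses. CDC25C, a phosphatase that activates CDK1, stood at 18, 19.8 and 18.6 CPM in the vehicle libraries and at 16.7, 15.9 and 5.88 CPM (interval 4.94 to 6.94). Their log2 differences at the high dose were -1.24, -1.24 and -1.66. Cyclin A2 (CCNA2) differed by -0.91 and cyclin B1 (CCNB1) by -0.50, the latter under the 1.5-fold line. CKS2 differed by -0.28, less than at the medium (-0.36) and low dose (-0.47). CDC25B, another CDC25 phosphatase that acts early at the centrosome, was at 173 CPM against 157 to 166 in the vehicle, a log2 difference of 0.11 and the only positive value among the 44.

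The remaining roles were low together with few exceptions. All 7 kinesins were at least 1.5-fold lower, between -1.37 (KIF20A, a cytokinesis motor) and -0.64 (KIF4A, a chromosome motor), and so were all 4 members of the chromosomal passenger complex, the Aurora B module that corrects attachments, led by AURKB (-1.37), INCENP (-1.05) and the survivin gene BIRC5 (-1.04). AURKB stood at 49.9, 49.2 and 51.1 CPM in the vehicle libraries and at 49.4, 54.4 and 19.3 CPM over the rising doses. NUSAP1, which bundles spindle microtubules, had the lowest value of all members at -1.71, with 149, 162 and 172 CPM in the vehicle libraries and 49.2 CPM (interval 46.4 to 52.1) at the high dose. TOP2A followed at -1.69, with 457, 542 and 506 CPM in the vehicle libraries and 155 CPM (interval 150 to 160). Both high-dose values lay well under every vehicle library. Of the 5 checkpoint genes TTK (-0.97), BUB1B (-0.96) and MAD2L1 (-0.90) passed 1.5-fold, and BUB3 (-0.37) and BUB1 (-0.35) did not. Of the 6 centromere and kinetochore genes 5 passed, led by SKA1 (-1.22) and CENPF (-1.17), and CENPN stood at -0.21. PLK1 (-0.68) and the transcription factor FOXM1 (-0.71) passed, and AURKA (-0.56) did not. CDC20, the activator of the anaphase promoting complex, stood at 158, 163 and 170 CPM in the vehicle libraries and at 159 CPM at the high dose (-0.04). UBE2C (-0.73), an enzyme of that complex, and PTTG1 (-0.96), a target of it, were lower. ECT2, the exchange factor that starts furrowing, was at -0.15. The 29 genes whose promoter window holds TTTGAA or TTCGAA had a median of -0.90 and the 8 without these letters -0.94. Other forms of the CHR were not searched, so the 8 are not shown to lack the element.

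Genes outside the 44 were read from lists by role. Of 60 other mitosis genes 47 were at least 1.5-fold lower at the high dose of Aucklandiae (median -0.93), led by the kinetochore genes SPC24 (-1.97) and CENPM (-1.76) and the helicase PIF1 (-1.72), and none was 1.5-fold higher. Of 45 genes of DNA replication and S phase 31 were lower (median -0.70), led by GINS1 (-1.40), RRM2 (-1.38) and CCNE2 (-1.28). Of 18 condensin and cohesin genes 8 were lower (median -0.49), led by NCAPD2, NCAPD3 (-0.99) and NCAPG (-0.89), and all of them but the cohesin subunit SMC1A (-0.72) were subunits of condensin. Of 16 subunits and partners of the anaphase promoting complex 1 was lower, ANAPC15 (-1.01), with a median of -0.03. Of 15 transcriptional controllers 4 were lower (median -0.14), a share not far from the 20.2% of all genes. MYBL2 (-0.89), NFYB (-0.73) and TFDP1 (-0.67) were the lowest of them. Of the 17 genes that brake entry into mitosis 4 were at least 1.5-fold higher and 6 lower (median -0.35), beside 15.9% and 20.2% of all genes. CDKN1A, the p21 inhibitor of CDKs, was at 3.17, GADD45B at 2.64, PLK3 at 2.20 and SFN at 1.51. BTG2 was at -2.87, CDKN1C at -1.81, CCNG1 at -1.03, CDKN1B at -0.96, WEE1 at -0.75 and CHEK2 at -0.60.

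Marker genes differed in that library as well. Of the 13 blood markers CD68 was at 47.9 CPM against at most 11 in the 58 libraries other than it and the Soshiho-tang library with blood transcripts, while HBB, PTPRC, CD3E, HLA-DRA, S100A8 and SPI1 were at 0. Summed blood markers were 52 CPM against 12.9 to 15.5 in the vehicle libraries. Among 4 endothelial markers PECAM1 was at 8.1 CPM against at most 1.7, and CDH5 and KDR were at 0. Among the 13 colon epithelial markers KRT20 was at 656 CPM against a vehicle mean of 234, VIL1 at 89 against 159 and CDX2 at 1.09 against 4.42. The part of these differences in the mitotic genes was not tested.

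At the high dose of Polygalae Radix fewer members passed the 1.5-fold line, and TOP2A had the lowest value. At its high dose 8 of 44 members were at least 1.5-fold below the vehicle mean, beside 8.76% of all genes, and 40 were below it at all, with a median log2 difference of -0.28. TOP2A was at 469, 390 and 209 CPM from the low to the high dose (interval of the last 204 to 215) against 457 to 542 in the vehicle libraries, log2 differences of -0.09, -0.36 and -1.26. The others past 1.5-fold were DLGAP5, a spindle protein (-0.88), KIF20A (-0.81), CDC25C (-0.75), KIF4A (-0.72), HMMR, a spindle pole protein (-0.65), CENPF (-0.64) and NUSAP1 (-0.61). Each of these but HMMR was also past 1.5-fold in the Aucklandiae library. ASPM (-0.58), CDC20 and BUB1 (-0.57 each) were just short of the line, and CCNB1 was at -0.42. In contrast to Aucklandiae, CDK1 (-0.12), CCNA2 (-0.06), AURKB (-0.16) and SKA1 (0.01) were close to the vehicle, and FOXM1 was at 0.11. At the medium dose (4.29% of all genes 1.5-fold lower) and the low dose (3.72%) no member passed, with medians of -0.17 and -0.10. In 23 of 44 members the values fell in order from low through medium to high dose, and in 34 the high dose was below the low dose. Without vehicle replicate 1 the count at the high dose was 14 in place of 8. The share of 8.76% of all genes belongs to the mean of all vehicle libraries.

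Of the 60 other mitosis genes 4 were 1.5-fold lower at the high dose of Polygalae, CENPE (-0.95), CKAP5 (-0.72) and MKI67 (-0.66) among them, a share under the 8.76% of all genes. Of the S phase genes RRM1 (-1.17), LIG1 (-0.78) and POLA1 (-0.70) were among 4 of 45 that were lower, a share close to that of all genes, and CCNE2 and CDT1 (0.68 each) were higher. Of the 18 condensin and cohesin genes 3 were lower, SMC2 (-0.88), NCAPD2 (-0.83) and SMC1A (-0.73). Of the 17 brakes 2 were higher, CDKN1A (0.94) and PLK3 (0.67), and 1 was lower, CDKN1C (-0.93). Over all genes tested 923 of 16835 were at least 1.5-fold higher in this library. Summed colon epithelial markers were 9270 CPM in this library against 12300 to 13900 in the vehicle libraries, with KRT8 at 4610 CPM and VIL1 at 56.3 CPM (vehicle means 6870 and 159). CDX2 (5.82 against 4.42 CPM) and CEACAM5 (9.02 against 6.61 CPM) of the same list were higher. Their part in the differences was not tested.

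**Figure D2:**
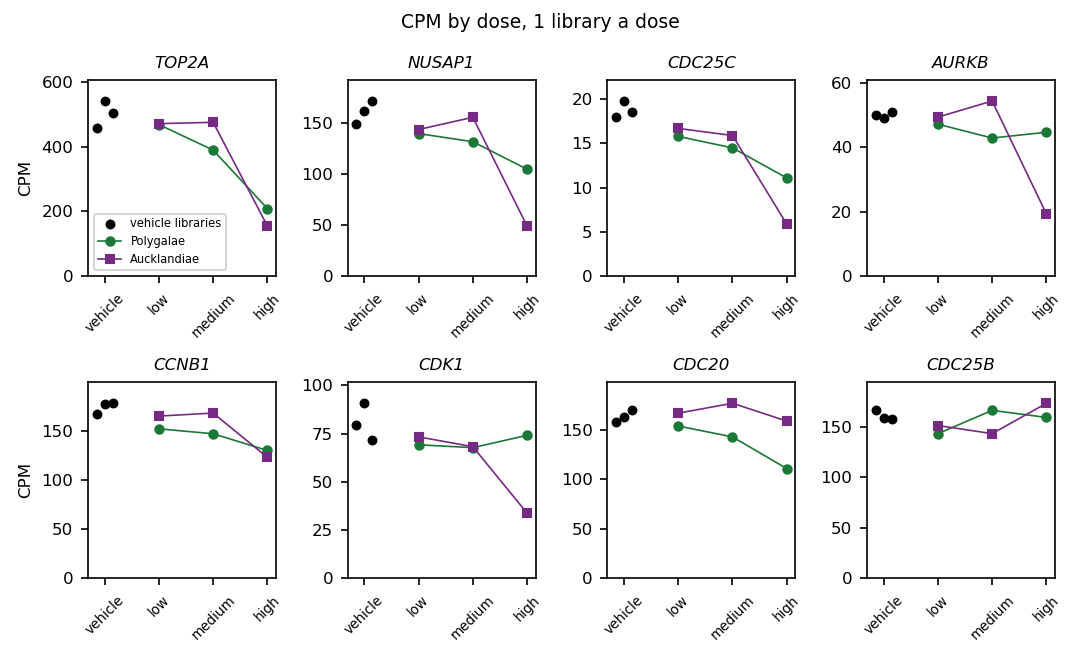
CPM of 8 members (vertical axis, from 0) in the 3 vehicle libraries (black) and at the low, medium and high dose of Polygalae (green circles) and Aucklandiae (purple squares), 1 library a dose. TOP2A is at 209 and 155 CPM at the high doses against 457 to 542 in the vehicle, while CDC20 is at 159 CPM and CDC25B at 173 CPM with Aucklandiae.

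Measured against the low dose of the same extract, inside 1 library set and without the vehicle, the high doses were again lower. The median over the members was -0.81 for Aucklandiae, with 42 of 44 members below 0, and -0.16 for Polygalae with 34 below 0. The medians over all genes were -0.01 and 0.00.

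In the fit of 53 libraries Soshiho-tang had the most members called between doses among the replicated extracts, an order that did not hold with 52 or 54 libraries or in fits of the compared groups alone. At the high against the low dose 10 of 44 members rose and none fell, beside 9.36% of all genes that rose and 7.23% that fell (edgeR quasi-likelihood test, Benjamini-Hochberg adjusted p under 0.05). The members' median log2 fold change was 0.092. The 3 genes of chromatid separation and mitotic exit all rose. UBE2C stood at 106 and 97.9 CPM in the low-dose libraries and at 118 and 138 CPM in the high-dose libraries, a log2 fold change of 0.33 ± 0.07 (SE, adjusted p = 0.000354). PTTG1 stood at 78.4 and 71.5 CPM against 76.9 and 106 CPM, and only the second high-dose library, the one with blood transcripts, was above both low-dose libraries (0.29 ± 0.10, adjusted p = 0.0342). CDC20 stood at 161 and 157 CPM against 185 and 183 CPM, with the groups apart in both libraries (0.21 ± 0.05, adjusted p = 0.00192).

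CDC25B was the clearest of the CDK1 regulators, at 158 and 157 CPM at the low dose and 188 CPM in each high-dose library (0.25 ± 0.05, adjusted p = 0.000378). Cyclin A2 rose by 0.18 ± 0.06 (adjusted p = 0.0206), while CCNB1 (0.06) and CDK1 (0.22, adjusted p = 0.0811) were not called. Of the kinetochore genes the centromeric histone CENPA rose by 0.32 ± 0.10, NUF2 by 0.25 ± 0.09 and CENPN by 0.18 ± 0.06. The checkpoint gene BUB3 rose by 0.17 ± 0.05 and the kinesin KIF2C, a microtubule depolymerase, by 0.12 ± 0.04. Without the library with blood transcripts, which leaves 1 high-dose library whose spread is taken from the other groups, the calls numbered 2: CDC25B (0.25, adjusted p = 0.00826) and CDC20 (0.21, adjusted p = 0.019). Of all genes 4.41% then rose and 3.43% fell. PTTG1 stood at 0.03 and CENPA at 0.11. Leaving out either low-dose library gave 6 calls, and putting the library that stood apart back into the fit gave 2. In a fit of these 2 groups alone no member was called.

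**Figure D3:**
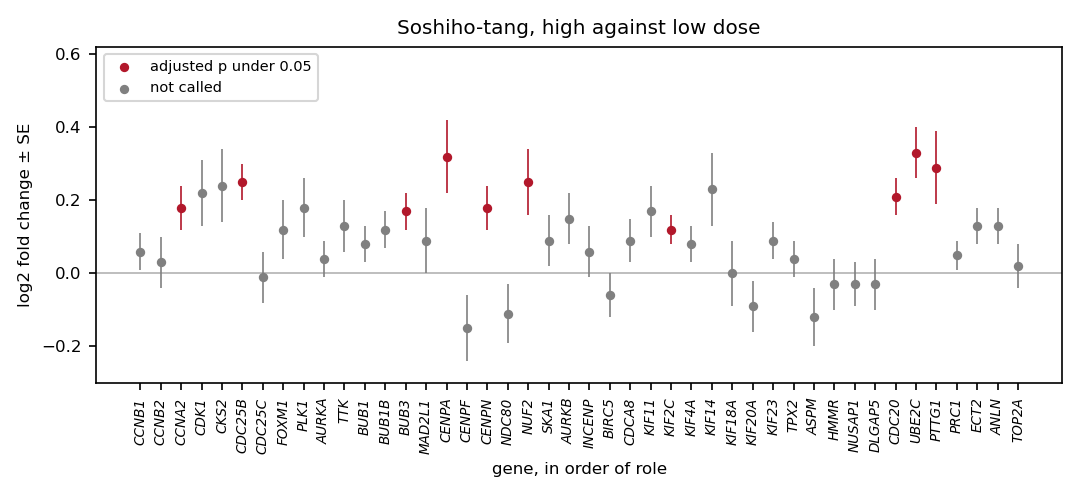
Log2 fold change of the 44 genes at the high against the low dose of Soshiho-tang, in order of role, with bars for 1 SE; red points are called. UBE2C is highest at 0.33 and CENPF lowest at -0.15, which was not called.

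The lists of other cell cycle genes are given for the same comparison, with and without the library with blood transcripts, beside 9.36% and 4.41% of all genes that rose. Of the 60 other mitosis genes 13 rose and none fell, led by MASTL (0.40), CDC25A (0.34) and FBXO5 (0.32), and without that library 3 rose, MASTL (0.37), SKA3 (0.31) and CDC25A (0.26). Of 45 S phase genes 10 rose and none fell, led by RRM2 (0.40), MCM10 (0.31) and CDC6 (0.31), and without it 5 rose, with RRM2 at 0.20. Of 17 brakes 5 rose and 4 fell, and without it 3 rose and 3 fell. CDKN1A went from 0.87 to 0.69 and BTG2 from -1.12 to -1.27, both called in either fit, while GADD45B went from 1.08 to 0.49 and was no longer called. Of 15 controllers 3 rose and 1 fell, and without it 2 rose, the MuvB subunit LIN54 (0.31 and 0.40) and MYBL2 (0.20 and 0.26). Of 16 genes of the anaphase promoting complex 2 rose and 1 fell, and without it 1 rose, UBE2S (0.31 and 0.34), and 1 fell. Of 18 condensin and cohesin genes none was called by edgeR in either fit.

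Against the vehicle the high dose of Soshiho-tang had 6 members higher and 1 lower, beside 9.99% and 8.17% of all genes. CENPN rose by 0.26 ± 0.05, CDC25B by 0.22 ± 0.05, CCNA2 and KIF2C by 0.17 each, CDC20 by 0.16 ± 0.04 (adjusted p = 0.00726) and ECT2 by 0.14, and NUSAP1 fell by 0.17 ± 0.06. CDC20 in the vehicle libraries stood at 158, 163 and 170 CPM, below both high-dose libraries. With the library that stood apart back in the fit 5 were called, and without vehicle replicate 2 the count was 12. Leaving out the library with blood transcripts leaves 1 high-dose library and no replicate check. The 6 higher members then lay between 0.12 (CCNA2) and 0.25 (CENPN), with ECT2 at 0.16, and NUSAP1 stood at -0.20. In a fit of these 2 groups alone none was called. At the medium dose none of 44 was called (edgeR; 7 at an unadjusted p under 0.05; 0 by DESeq2), beside 0.499% of all genes higher and 0.41% lower, and 1 was called without vehicle replicate 1 or 2. At the low dose 2 fell, UBE2C (-0.27 ± 0.06) and SKA1 (-0.26 ± 0.07), beside 0.642% higher and 0.624% lower, and the count was 0 without vehicle replicate 3 or without low-dose replicate 3, 1 without vehicle replicate 2 or low-dose replicate 2, and 6 without vehicle replicate 1.

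CENPF, KIF14, ASPM, KIF11, ECT2 and KIF23 were higher and UBE2C was lower than the vehicle at the high dose of Yijin-tang. Of the 44 members 6 rose and 1 fell, beside 3.7% and 2.86% of all genes. CENPF, a large kinetochore protein, stood at 272, 298 and 277 CPM in the vehicle libraries and at 348, 347 and 358 CPM in the high-dose libraries, with no overlap (0.30 ± 0.07, adjusted p = 0.00596). ASPM, a spindle pole protein, stood at 175, 191 and 174 CPM against 207, 223 and 222 CPM, again with no overlap (0.26 ± 0.07, adjusted p = 0.0148). The kinesins KIF14 (0.27 ± 0.08), KIF11, the motor that separates the poles (0.22 ± 0.06), and KIF23 (0.15 ± 0.04) rose, as did ECT2 (0.17 ± 0.04). UBE2C fell by 0.17 ± 0.05, from 119 to 127 CPM in the vehicle to 103 to 112 CPM. CCNB1 (-0.01), CDK1 (0.01), PLK1 (-0.01) and CDC20 (0.01) had log2 fold changes near 0. Without vehicle replicate 1 or high-dose replicate 2 the calls numbered 3, and without high-dose replicate 3 they numbered 4. With the library that stood apart in the fit none was called, and in a fit of these 2 groups alone 1 was, CENPF.

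At the medium dose of Yijin-tang CENPF was higher (0.29 ± 0.07) and CKS2 lower (-0.29 ± 0.08), beside 1.79% of all genes higher and 1.71% lower. At the low dose, with 2 libraries, SKA1 (-0.29 ± 0.07) and UBE2C (-0.25 ± 0.06) were lower, beside 0.826% higher and 0.707% lower. With the third low-dose library back in, UBE2C turned to 0.30 with an adjusted p of 0.167. Leaving out 1 library moved the medium-dose count between 0 (without vehicle replicate 3, or medium-dose replicate 1 or 2) and 5 (without vehicle replicate 2), with 1 without medium-dose replicate 3. It moved the low-dose count between 0 (without either low-dose library) and 6 (without vehicle replicate 1), with 1 without vehicle replicate 2 or 3. Between the high and the low dose no member was called (edgeR; 7 at an unadjusted p under 0.05, all higher; 0 by DESeq2), beside 0.279% of all genes higher and 0.196% lower. There 42 of 44 members were above 0, with a median of 0.075. With all 54 libraries 17 members were called in that comparison, so this count turns on the library that stood apart. The shares of all genes in this paragraph belong to the fit of 53 libraries.

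The decoctions share 1 library set, so their high doses (500 µg/mL each) could be compared without the vehicle. CENPF (0.30 ± 0.08), ASPM (0.27 ± 0.08) and the kinetochore gene NDC80 (0.24 ± 0.07) were higher with Yijin-tang, and CDC25B (-0.33 ± 0.05, adjusted p = 9.51e-07), UBE2C (-0.23 ± 0.06) and CDC20 (-0.15 ± 0.04) were lower, beside 4.8% of all genes higher and 6.4% lower. CDC25B stood at 161, 150 and 137 CPM with Yijin-tang and at 188 CPM in each Soshiho-tang library. NDC80 stood at 45.4, 46 and 47.9 CPM against 37.1 and 41.2 CPM. CENPF stood at 348, 347 and 358 CPM against 308 and 261 CPM. In all 3 genes the groups did not overlap. Without the library with blood transcripts CDC25B and NDC80 stayed called, CENPF stood at 0.19 and ASPM at 0.13. With all 54 libraries only CDC25B was called, and in a fit of these 2 groups alone none was.

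In the 4 replicated single herbs every member called was lower than the vehicle. For Liriopis the count of members that fell was 3 at the high dose (beside 2.41% of all genes higher and 1.57% lower), 7 at the medium dose (2.41% and 2.29%) and 9 at the low dose (2.93% and 2.45%). For Schisandrae it was 9 (3.08% and 2.32%), 2 (2.48% and 1.86%) and 4 (1.92% and 1.63%) from the high to the low dose. For Longan it was 2 (0.725% and 0.642%), 1 (0.19% and 0.19%) and 4 (1.16% and 2.47%), and for Zizyphi 2 (1.16% and 1.09%), 1 (0.255% and 0.303%) and 1 (0.374% and 0.517%). None rose in these 12 comparisons. By an unadjusted p under 0.05 between 0 and 3 members were higher, and by DESeq2 0 were called higher. All of them rest on the same 3 vehicle libraries, so a gene called in several is not called independently.

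UBE2C and SKA1, a kinetochore protein that tracks microtubules, were called most often. UBE2C stood at 119 to 127 CPM in the vehicle libraries and between 92.2 and 119 CPM (median 105) in the 36 libraries of these 4 herbs, 35 of them below every vehicle library. Its log2 fold changes were -0.28 ± 0.05 at the medium and low dose of Liriopis and the low dose of Schisandrae, and -0.19 ± 0.05 at the low dose of Longan. SKA1 stood at 17.7 to 19.1 CPM in the vehicle libraries and between 14.1 and 17.9 CPM (median 15.2) in those 36, and fell by 0.35 ± 0.06 at the low dose of Liriopis (adjusted p = 0.000426). CKS2 stood at 50.2 to 57.1 CPM and between 38.7 and 53.2 CPM (median 43.3), and fell by 0.34 ± 0.08 at the high and low dose of Zizyphi. In the 3 genes the herb libraries lay almost wholly below the vehicle libraries.

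Other members were called lower in fewer comparisons. At the high dose of Schisandrae PTTG1 (-0.33 ± 0.08), CKS2 (-0.28), CCNB2 (-0.22 ± 0.06), UBE2C (-0.20), NUSAP1 (-0.19) and CDC25B (-0.17) were the largest of the 9, and TPX2 (-0.16), CCNB1 (-0.14 ± 0.04) and AURKA (-0.14 ± 0.04) completed them. CCNB1 stood at 167, 177 and 178 CPM in the vehicle libraries and at 154, 157 and 165 CPM there. It was the only comparison in which CCNB1 or AURKA passed the test. At the low dose of Liriopis SKA1, UBE2C, PTTG1 (-0.28 ± 0.08), NUSAP1 (-0.22), TPX2 (-0.19) and AURKB (-0.19) were largest, followed by CCNB2, CDC25B and BUB1, which lay between -0.18 and -0.15. At the low dose of Longan ASPM (-0.28 ± 0.07) and INCENP (-0.25 ± 0.06) fell beside UBE2C and NUSAP1. CDK1, PLK1, TOP2A, FOXM1 and BUB1B passed in none of the 18 comparisons of replicated groups with the vehicle, where their log2 fold changes lay between -0.19 (CDK1, low dose of Zizyphi) and 0.16 (CDK1, high dose of Soshiho-tang). TOP2A, the gene furthest below the vehicle with Polygalae, lay between -0.07 and 0.09.

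These calls depend on single libraries. The shares of all genes called under the settings below are not given, so the counts do not show whether the members differ from other genes there. With all 54 libraries in the fit 0 or 1 member was called in each of the 12 comparisons, and in fits of the 2 groups compared alone 0 were. Without vehicle replicate 1 the counts for the high, medium and low dose rose to 11, 11 and 14 for Liriopis, 12, 5 and 10 for Schisandrae, 6, 6 and 7 for Longan and 3, 2 and 3 for Zizyphi. Without vehicle replicate 3 they were 1, 2 and 2 for Liriopis, 1, 0 and 1 for Schisandrae and 1, 0 and 1 for Longan, and 0 for the medium and low dose of Zizyphi. Without vehicle replicate 2 the count was 4 for the medium dose of Liriopis, 0 for the medium dose of Schisandrae and 1, 0 and 0 for Zizyphi. Treated libraries mattered as well. For Liriopis the count was 3, 4 and 2 without medium-dose replicate 1, 2 or 3, and it was 4 and 3 when low-dose replicate 2 or 3 was dropped. For Schisandrae it was 2 and 3 without high-dose replicate 1 or 2, 0, 4 and 1 when medium-dose replicate 1, 2 or 3 was dropped, and 2 without any 1 of the low-dose libraries. For Longan it was 0 and 1 without high-dose replicate 1 or 3, 0 without medium-dose replicate 1 or 3. Dropping replicate 1, 2 or 3 of its low dose gave 0, 7 and 2. For Zizyphi it was 1, 1 and 0 without high-dose replicate 1, 2 or 3, 0 without medium-dose replicate 1 or 3, and 0 without any 1 of the low-dose libraries.

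**Figure D4:**
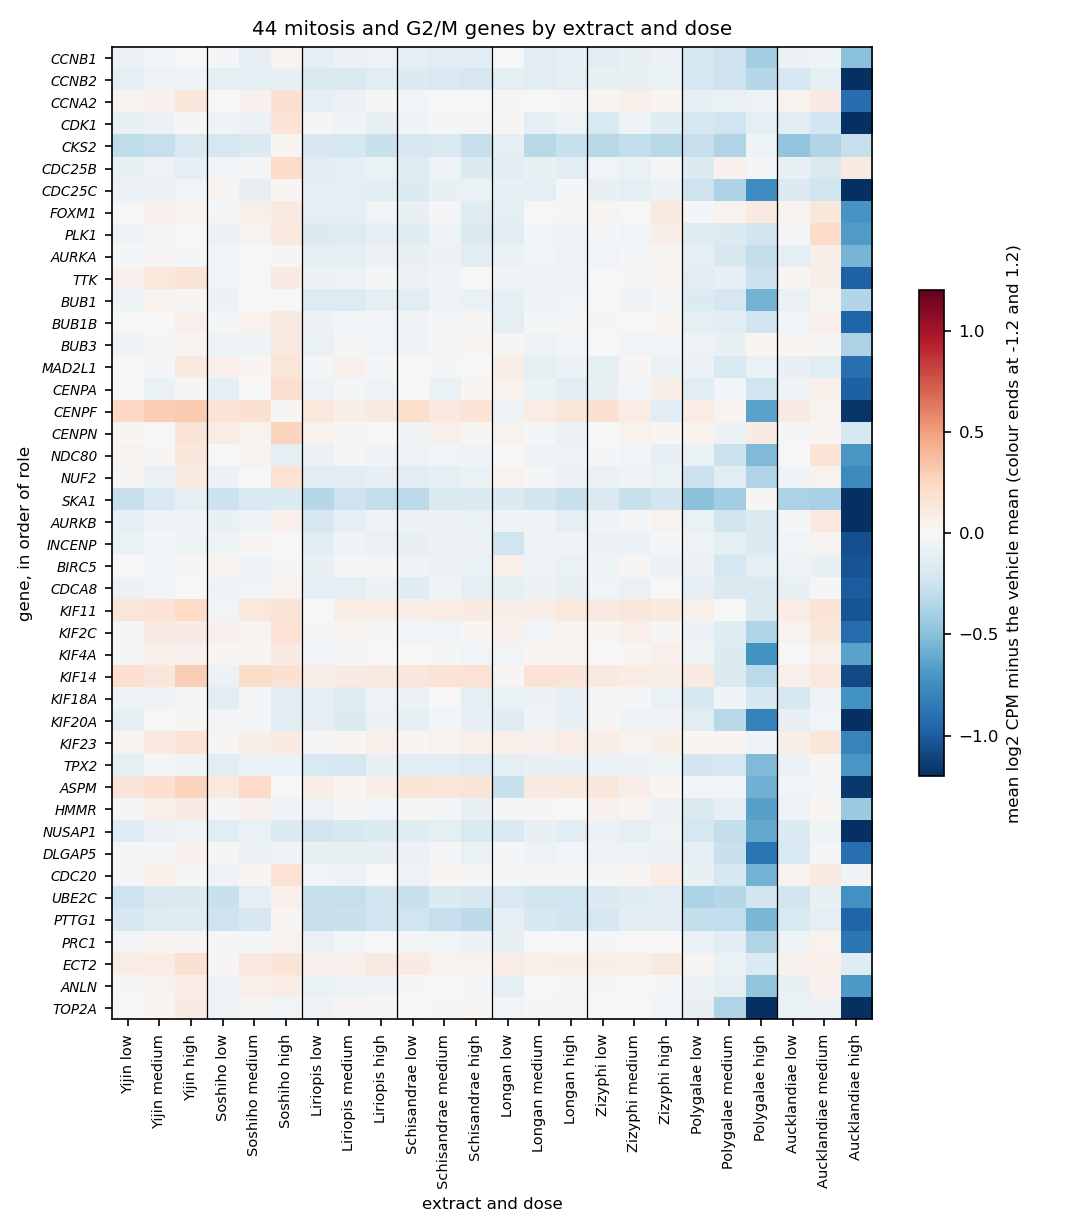
Mean log2 CPM minus the vehicle mean of the 44 genes (rows, in order of role) in the 24 extract and dose groups (columns; the Yijin-tang low-dose library that stood apart is left out; Polygalae and Aucklandiae are single libraries). The Aucklandiae high-dose column holds values down to -1.71, TOP2A is at -1.26 in the Polygalae high-dose column, and UBE2C, SKA1 and CKS2 are pale blue in most replicated groups.

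Longer members tended to have higher values in most, not all, comparisons with the vehicle. The 11 members called higher in any of the 18 had a median summed exon length of 4860 bases and the 14 called lower one of 2901.5 bases, and CDC25B and ASPM are in both. Across the 44 members Spearman's rho between log2 fold change and length was between 0.53 (low dose of Yijin-tang) and 0.70 (high dose of Longan) in all but 4 of the 18. Those were the low dose of Soshiho-tang (0.39), the high dose of Zizyphi (0.27), the low dose of Longan (0.12) and the high dose of Soshiho-tang (0.03). Across 16721 genes it lay between -0.14 (low dose of Longan) and 0.21 (medium dose of Longan). At the high against the low dose, within a library set, the members' rho was -0.27 for Soshiho-tang, -0.41 for Zizyphi, 0.56 for Longan, 0.15 for Yijin-tang, 0.09 for Liriopis and 0.03 for Schisandrae. Across the 16721 genes rho between doses was 0.27 for Longan. For the other extracts it lay between -0.07 (Soshiho-tang) and 0.03 (Yijin-tang). These are descriptions across genes that share libraries, with no test. CKS2 and UBE2C, the shortest members at 613 and 1286 bases, lay at the low end and CENPF and ASPM, the longest at 11690 and 10887 bases, at the high end of most comparisons with the vehicle. The part of length in the calls was not tested.

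**Figure D5:**
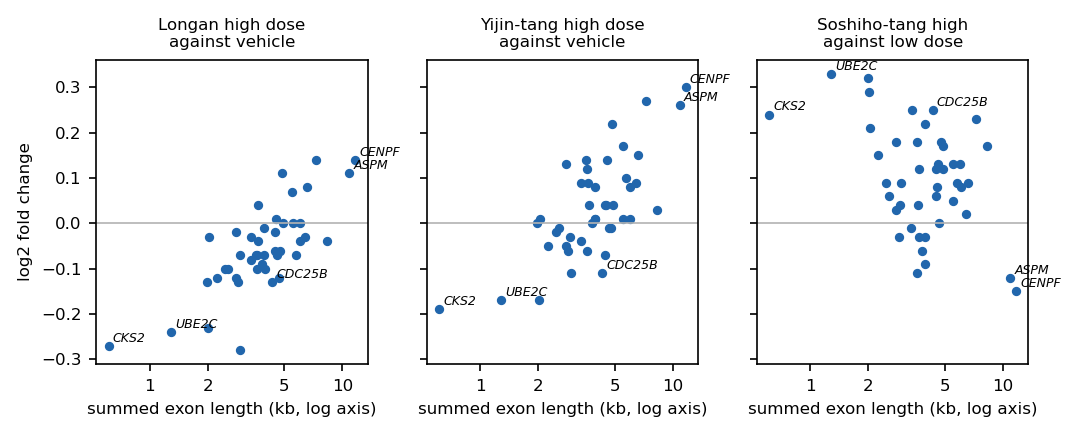
Log2 fold change of the 44 genes (vertical axis) by summed exon length (horizontal log axis, kb) in 3 comparisons. Short CKS2 and UBE2C lie low and long CENPF and ASPM high for Longan (rho 0.70) and Yijin-tang (rho 0.62) against the vehicle, and the order is turned for Soshiho-tang between doses (rho -0.27).

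Between doses of the 4 replicated single herbs 1 member passed the test. ASPM rose at the high against the low dose of Longan, at 143, 146 and 160 CPM in the low-dose libraries and 191, 199 and 196 CPM in the high-dose libraries, with no overlap (0.39 ± 0.07, adjusted p = 0.000653), beside 3.61% of all genes higher and 0.606% lower. Of the 60 other mitosis genes 5 rose, led by MKI67, the proliferation marker Ki-67 (0.52), CIT (0.23) and KNL1 (0.21), and SPC24 fell by 0.24. Of the 18 condensin and cohesin genes NIPBL (0.24), SMC1A (0.18) and NCAPD3 (0.17) rose. With all 54 libraries ASPM was not called (adjusted p = 0.894), by DESeq2 4 members were, and without low-dose replicate 2, high-dose replicate 3 or low-dose replicate 3 the counts were 3, 2 and 2. By edgeR no member was called between the doses of Liriopis (0% of all genes higher and 0% lower; 3 members at an unadjusted p under 0.05; 0 by DESeq2) or Schisandrae (0.285% and 0.22%; 1; 0). For Zizyphi (0.0713% and 0.131%) none was called by edgeR, 3 had an unadjusted p under 0.05 and 1 was called by DESeq2. CENPF came nearest there, lower at the high dose (-0.31 ± 0.07, adjusted p = 0.0558), and CENPE, a kinetochore motor of the other mitosis genes, fell by 0.84.

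Between herbs of 1 library set no member passed the test at the high dose. Between Schisandrae and Liriopis no member was called by edgeR, 2 had an unadjusted p under 0.05 and DESeq2 called 0 (all genes 0.244% higher and 0.137% lower). Between Longan and Zizyphi none was called, 6 had an unadjusted p under 0.05 and DESeq2 called 0 (0.0416% and 0.00594%). SEs of the members' log2 fold changes in these comparisons lay between 0.04 and 0.09.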

How the data were processed

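RNA from HT29 cells was sequenced in 60 libraries with reads of 100 bases, and the authors deposited expected counts per gene. Per the submitters' processing notes, RSEM 1.3.3 and STAR 2.7.3a, with FastQC 0.11.9 and Trim Galore 0.6.5, were used with the human build hg38; the annotation release is not given in the sources used here. RSEM shares ambiguous reads between genes; 27 of 44 members had whole counts in all libraries (tolerance 0.005), and CCNA2, CENPN, FOXM1 and PLK1 in none. Members and gene lists were chosen with earlier results of these data known.

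Expected counts were rounded. edgeR 4.0.16 (filterByExpr, TMM, quasi-likelihood test) was fitted once to 53 libraries in 19 groups, with 16835 genes tested, and p-values were adjusted over all of them by Benjamini-Hochberg, with calls at an adjusted p under 0.05. The SE is the log2 fold change divided by the root of F, so it rests on the spread across all groups of the fit. Groups of 1 library are given as log2 CPM (prior count 2) minus the vehicle mean, with 1.5-fold as the line and no test. Levels between genes are CPM per kb of summed exon. All 44 members passed the filter. Called members were named by size of change, up to 6 in each direction. CCNB1, CDK1, PLK1, CDC20, AURKA, TOP2A, FOXM1 and BUB1B were followed whatever their call, and each other list gave up to 3 genes a comparison; further members and brake genes were named after their values were seen. In simulated data for the high dose of Yijin-tang against the vehicle (16835 genes) 56% of genes changed by 1.2-fold and 100% of those changed by 1.5-fold were recovered. The simulation gave all groups 1 coefficient of variation, near the 5.07% of the fit, and no library set effect. No gene with low counts was changed. The recovered shares therefore do not describe the measured comparison, where the vehicle libraries spread more. Same-numbered libraries did not deviate together (correlations -0.14 to 0.22), so numbers were not used as pairs. Alternatives were all 54 libraries, 52 libraries, RLE, no filter, DESeq2 1.42.0, fits of the compared groups alone, a replicate block, each library left out, a prior count of 0.5 and, chosen after seeing the data, a fold of 2 and the other gene lists of Soshiho-tang between doses without the library with blood transcripts. Polygalae and Aucklandiae entered no test.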

Additional observations from a re-analysis of the deposited data

Results flagged for a closer look

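The 6 members that differed between the decoctions at their high dose were marked because the difference itself passed the test (edgeR, adjusted p under 0.05). Of the 44 members 3 were higher and 3 lower with Yijin-tang, beside 4.8% and 6.4% of all genes. With all 54 libraries only CDC25B was called, and in a fit of the compared groups alone none was. The log2 fold change of Yijin-tang against Soshiho-tang was -0.33 for CDC25B, 0.30 for CENPF, 0.27 for ASPM, 0.24 for NDC80, -0.23 for UBE2C and -0.15 for CDC20. Without the Soshiho-tang high dose replicate 3 library, which holds blood transcripts, CDC25B (-0.33, adjusted p = 0.00018) and NDC80 (0.33, adjusted p = 0.0251) remained called.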

How the results depend on the processing

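Doses given alone are comparisons with the vehicle. Counts of members are given in this section without the share of all genes under the same setting. With all 54 libraries in the fit the members called numbered 0 for Yijin-tang high dose, Yijin-tang medium dose, Soshiho-tang low dose, Liriopis medium dose, Schisandrae high dose, Schisandrae medium dose, Longan high dose, Longan medium dose, Longan low dose, Zizyphi high dose, Zizyphi medium dose, Zizyphi low dose and Longan high against Longan low, 1 for Liriopis high dose, Liriopis low dose, Schisandrae low dose and Yijin-tang high against Soshiho-tang high, 2 for Soshiho-tang high against Soshiho-tang low, 8 for Yijin-tang low dose, 17 for Yijin-tang high against Yijin-tang low, and the median over the members was 0.111 for Yijin-tang high against Yijin-tang low. With 52 libraries, the one with blood transcripts also left out, the members called numbered 1 for Zizyphi high against Zizyphi low, 2 for Soshiho-tang high against Soshiho-tang low and Yijin-tang high against Soshiho-tang high, 3 for Longan medium dose and Longan high against Longan low, 5 for Schisandrae medium dose, and the median over the members was 0.008 for Soshiho-tang high dose and 0.016 for Yijin-tang high against Soshiho-tang high. With RLE scaling the members called numbered 2 for Longan high against Longan low. Without the filter on low counts the members called numbered 1 for Zizyphi high dose, Zizyphi high against Zizyphi low and Longan high against Zizyphi high, 2 for Soshiho-tang medium dose and Zizyphi medium dose, 3 for Longan medium dose, Zizyphi low dose and Longan high against Longan low, 4 for Yijin-tang medium dose, Yijin-tang low dose, Soshiho-tang high dose and Longan high dose. In fits of the compared groups alone the members called numbered 0 for Yijin-tang low dose, Soshiho-tang high dose, Soshiho-tang low dose, Liriopis high dose, Liriopis medium dose, Liriopis low dose, Schisandrae high dose, Schisandrae medium dose, Schisandrae low dose, Longan high dose, Longan medium dose, Longan low dose, Zizyphi high dose, Zizyphi medium dose, Zizyphi low dose, Soshiho-tang high against Soshiho-tang low and Yijin-tang high against Soshiho-tang high, 1 for Yijin-tang high dose, Yijin-tang medium dose, Zizyphi high against Zizyphi low and Longan high against Zizyphi high. With DESeq2 the members called numbered 1 for Zizyphi high against Zizyphi low, 2 for Zizyphi medium dose and Zizyphi low dose, 3 for Longan medium dose, 4 for Longan high against Longan low, 5 for Liriopis high dose and Schisandrae medium dose, 8 for Longan low dose, 9 for Schisandrae low dose. With the replicate block the members called numbered 1 for Zizyphi high against Zizyphi low. With a fold of 2, chosen after seeing the data, the members lower numbered 1 for Polygalae high dose, 15 for Aucklandiae high dose. UBE2C at the low dose of Yijin-tang turned to 0.30 with all 54 libraries.

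With 1 library left out in turn, the count of members ran from 8 to 14 for Polygalae high dose, 1 to 11 for Liriopis high dose, 2 to 14 for Liriopis low dose, 2 to 11 for Liriopis medium dose, 1 to 3 for Longan high against Longan low, 0 to 6 for Longan high dose, 0 to 7 for Longan low dose, 0 to 6 for Longan medium dose, 1 to 12 for Schisandrae high dose, 1 to 10 for Schisandrae low dose, 0 to 5 for Schisandrae medium dose, 2 to 11 for Soshiho-tang high against Soshiho-tang low, 6 to 12 for Soshiho-tang high dose, 0 to 6 for Soshiho-tang low dose, 0 to 1 for Soshiho-tang medium dose, 2 to 9 for Yijin-tang high against Soshiho-tang high, 3 to 10 for Yijin-tang high dose, 0 to 6 for Yijin-tang low dose, 0 to 5 for Yijin-tang medium dose, 0 to 3 for Zizyphi high dose, 0 to 3 for Zizyphi low dose and 0 to 2 for Zizyphi medium dose. The median over the members ran from -0.913 to -0.850 for Aucklandiae high dose, -0.093 to -0.036 for Aucklandiae low dose, -0.029 to 0.061 for Aucklandiae medium dose, -0.090 to -0.011 for Liriopis high dose, -0.127 to -0.064 for Liriopis low dose, -0.099 to -0.040 for Liriopis medium dose, -0.091 to -0.008 for Longan high dose, -0.110 to -0.036 for Longan low dose, -0.333 to -0.248 for Polygalae high dose, -0.144 to -0.076 for Polygalae low dose, -0.101 to -0.032 for Schisandrae high dose, -0.096 to -0.029 for Schisandrae low dose, -0.073 to 0.004 for Schisandrae medium dose, 0.008 to 0.080 for Soshiho-tang high dose, -0.071 to -0.012 for Soshiho-tang low dose, -0.040 to 0.016 for Soshiho-tang medium dose, -0.032 to 0.016 for Yijin-tang high against Soshiho-tang high, -0.014 to 0.042 for Yijin-tang high dose, -0.072 to -0.017 for Yijin-tang low dose, -0.040 to 0.021 for Yijin-tang medium dose, -0.077 to 0.008 for Zizyphi high dose, -0.063 to -0.008 for Zizyphi low dose and -0.063 to 0.012 for Zizyphi medium dose.

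Of the 82 calls of single members in the 27 comparisons, 82 kept their side of the threshold with DESeq2, RLE scaling and the replicate block, 67 with 52 libraries, 61 without the filter, 12 with all 54 libraries and 3 in fits of the compared groups alone. The replicate block lost none of the 82 calls and added 1 in each of 7 comparisons, with counts of 3 for the medium dose of Yijin-tang, 4 and 10 for the high and low dose of Liriopis, 3 for the medium dose of Schisandrae, 5 for the low dose of Longan, 7 for Yijin-tang against Soshiho-tang and 1 for Zizyphi high against low. The cause of these shifts was not tested, except that fits of the compared groups alone have fewer samples. Single libraries of Polygalae and Aucklandiae have no replicate check, and whether depth or the number of libraries limits the precision was not tested.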
